A study of Mus musculus with 12 samples.

Results

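Mitochondrial chaperones and proteases were followed through 10 genes in mouse primary midbrain astrocytes exposed to a mitochondrial toxin. The genes were Hspa9, Dnaja3, Trap1, Hspd1, Hspe1, Lonp1, Clpp, Clpx, Afg3l2 and Yme1l1, chosen by gene symbol out of 32742 genes in the deposited table. All 10 passed the filter on low counts, which kept 21129 genes. The samples fall into 4 groups of 3: wild type (labelled WT) with phosphate-buffered saline (PBS), wild type with MPP+, Arrb2-KO with PBS and Arrb2-KO with MPP+. MPP+ was given at 500 µM for 24 h, and every sample is labelled Day 14. Arrb2 encodes beta-arrestin 2, and MPP+ is the active metabolite of MPTP and inhibits complex I of the respiratory chain. Per the labels, the cultures came from neonatal midbrain, were freed of other glia by shaking, and were over 95% astrocytes by GFAP staining. The strain and sex of the mice, the Cre or construct behind the knockout, and whether replicates came from separate cultures are not stated, so p-values measure only the spread between these samples.

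Most mitochondrial proteins are made in the cytosol and enter through membrane translocases as unfolded chains. In the matrix, the Hsp70 protein mortalin (Hspa9) pulls them in and starts their folding with a J protein (Dnaja3 is one) and a nucleotide exchange factor (Grpel1 or Grpel2). The chaperonin made of Hspd1 (Hsp60) and Hspe1 (Hsp10) encloses and folds many of them, and Trap1 is the mitochondrial Hsp90. Proteins that do not fold are degraded by AAA+ proteases: Lonp1 and the ClpXP complex in the matrix, where Clpp is the peptidase and Clpx the unfoldase that feeds it, and Afg3l2 and Yme1l1 in the inner membrane, with their active sites facing the matrix and the intermembrane space respectively. A rise of such genes when mitochondrial proteins misfold is known as the mitochondrial unfolded protein response. In mammals it overlaps with the integrated stress response, which acts through the transcription factors Atf4, Atf5 and Ddit3 (CHOP).

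Hspd1 and Hspe1 lie head to head on chromosome 1 and share a regulatory region, the only overlapping pair among the 10 genes. In GRCm38, Hspd1 covers chr1:55077835-55088243 on the minus strand and Hspe1 covers chr1:55088132-55091307 on the plus strand, and their annotated exons share 112 bases on opposite strands. The RefSeq promoter table (GRCm38.p6; 250 bases before to 50 after a start) had windows for 8 of the 10 genes. It had none for Hspa9 and Afg3l2, so no motif was searched in these. The window of Hspe1, chr1:55087898-55088197 on the plus strand, is shown because it holds the sequence that both genes share. The capitals mark a run of 18 bases in which 3 heat shock element units overlap, TTCNNGAA at its start, GAANNTTC in its middle and TTCNNGAA at its end.
Hspe1 promoter: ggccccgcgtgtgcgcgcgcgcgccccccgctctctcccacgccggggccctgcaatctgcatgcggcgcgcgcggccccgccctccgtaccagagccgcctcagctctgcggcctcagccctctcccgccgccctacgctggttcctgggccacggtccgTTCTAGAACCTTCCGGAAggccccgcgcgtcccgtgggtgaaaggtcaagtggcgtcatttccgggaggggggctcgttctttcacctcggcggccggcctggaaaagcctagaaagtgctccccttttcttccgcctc
The same 18 bases, chr1:55088059-55088076, read as follows toward each gene.
Toward Hspe1: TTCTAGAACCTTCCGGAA
Toward Hspd1: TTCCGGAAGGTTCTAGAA
They begin 89 bases before the Hspe1 start, and 144 bases before the inner of 2 RefSeq starts of Hspd1, which is 216 bases from that of Hspe1. The outer RefSeq start of Hspd1, at chr1:55088243, is its gene start in the deposited table. Counted from there, the 18 bases lie inside Hspd1, and the window of that start held no heat shock element unit.

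Searched on both strands, the unit GAANNTTC was present in 7.86% and the unit TTCNNGAA in 8.52% of the 32851 promoter windows in the table. Besides the shared region, TTCNNGAA matched once more among the members, from position 34 of the Clpp transcript as RefSeq starts it. The palindromic binding motif of NRF1 (nuclear respiratory factor), present in 4.60% of windows, matched in Hspd1 and in Dnaja3, where a match lies on each side of the RefSeq start, 1 on each strand. The Dnaja3 window, chr16:4683820-4684119 on the plus strand, is shown because Dnaja3 is a riser with such a repeat, with both matches in capitals.
Dnaja3 promoter: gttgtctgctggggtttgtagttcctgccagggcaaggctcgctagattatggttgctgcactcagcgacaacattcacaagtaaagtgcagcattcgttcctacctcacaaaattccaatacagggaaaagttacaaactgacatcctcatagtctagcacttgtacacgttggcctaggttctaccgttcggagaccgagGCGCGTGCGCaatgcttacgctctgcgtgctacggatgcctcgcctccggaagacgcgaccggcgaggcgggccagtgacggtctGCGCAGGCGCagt
This RefSeq start lies 44081 bases inside the gene span of the deposited table. The cAMP response element TGACGTCA (1.79% of windows) matched in Trap1 alone, CCAAT (37.4%) in 4 of the 8, and the amino acid response element core TGATGNAA (3.97%) in none of the 8. A match in these letters is not a measured binding site, and an absent one says only that the letters are not in this window.

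Total counts ran from 64249029 to 69865569 per sample, and the lowest count of any member in any library was 1333, a counting error of 2.74%. Arrb2 RNA ran from 21.7 to 31.0 CPM (counts scaled to library size) in wild type and 13.8 to 16.1 in Arrb2-KO under PBS, and from 17.2 to 24.2 against 12.1 to 15.1 under MPP+. It was lower in the knockout without overlap, at -0.83 ± 0.16 on the log2 scale under PBS (SE; edgeR adjusted p = 0.0084) and -0.57 ± 0.16 under MPP+ (adjusted p = 0.0363, lost under 11 of 22 alternatives), but still present, and which exons are deleted is not stated. The 4 Y-linked genes examined summed to at most 0.23 CPM in wild type and to between 39.4 and 131 CPM in Arrb2-KO. The X-linked Xist ran from 787 to 868 CPM in wild-type PBS and 1195 to 1415 CPM in wild-type MPP+. In Arrb2-KO it ran from 393 to 572 CPM under PBS and 635 to 913 CPM under MPP+. Y-linked RNA and Xist were thus both present in the knockout, and the sex make-up of the cultures and the genotype cannot be told apart. Replicate 1 of wild type with MPP+ stood apart from its group on the third principal component (5.28% of the variance), at 34.4 against -51.9 and -27.0. The 8 astrocyte markers summed to between 4667 and 5492 CPM in wild-type PBS and to between 1657 and 2254 CPM under MPP+, and 7 of them fell in each genotype. Of the 10 microglia and macrophage markers, 9 fell and 1 (Cd68) rose with MPP+ in wild type, and 5 fell and 1 rose in the knockout, with wild-type sums of 373 to 549 CPM under PBS and 221 to 296 CPM under MPP+. Of the tested markers, 3 of 8 for the oligodendrocyte lineage and 3 of 6 for neurons also fell in each genotype, and none rose. Wild-type sums went from 293 to 321 CPM under PBS to 75.8 to 87.7 CPM under MPP+ for the oligodendrocyte lineage and from 169 to 311 CPM to 113 to 129 CPM for neurons. Of the 5 fibroblast and meningeal markers, 2 fell in wild type and 0 were called in the knockout (median log2 fold changes -1.14 and 0.12). Their wild-type sums were 309 to 1053 CPM under PBS and 146 to 499 CPM under MPP+. Each of them was highest in replicate 1 within wild-type MPP+, with Col1a2 at 251 CPM against 75.6 and 95.0 CPM. Of 4 endothelial markers tested, 1 fell in each genotype. The part of these cell types in the MPP+ results was not tested. In bulk RNA, fewer cells of a type and less RNA per cell cannot be told apart.

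In wild-type astrocytes, MPP+ raised 7 of the 10 genes and lowered 2, while among all tested genes 26.8% were called higher and 28.4% lower (55.2% in either direction). The median log2 fold change of the 10 was 0.78, against -0.038 over all tested genes. Hspa9, Lonp1, Dnaja3 and Clpp more than doubled, a call and size that 9.55% of tested genes reached. In Arrb2-KO, Hspa9, Lonp1 and Dnaja3 did so, where 6.24% of tested genes did. In wild type, Hspd1, Hspe1 and Afg3l2 rose less, Trap1 and Clpx fell, and Yme1l1 did not pass the test. In Arrb2-KO astrocytes the 7 risers were called higher again (19.9% of tested genes were called higher in both genotypes) and none of the 10 lower, against 23.1% and 24.7% of all tested genes (47.7% in either direction), with a median of 0.73 against -0.035. Both genotypes' calls came from edgeR's quasi-likelihood test with Benjamini-Hochberg adjustment over all tested genes, at an adjusted p under 0.05.

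**Figure D1:**
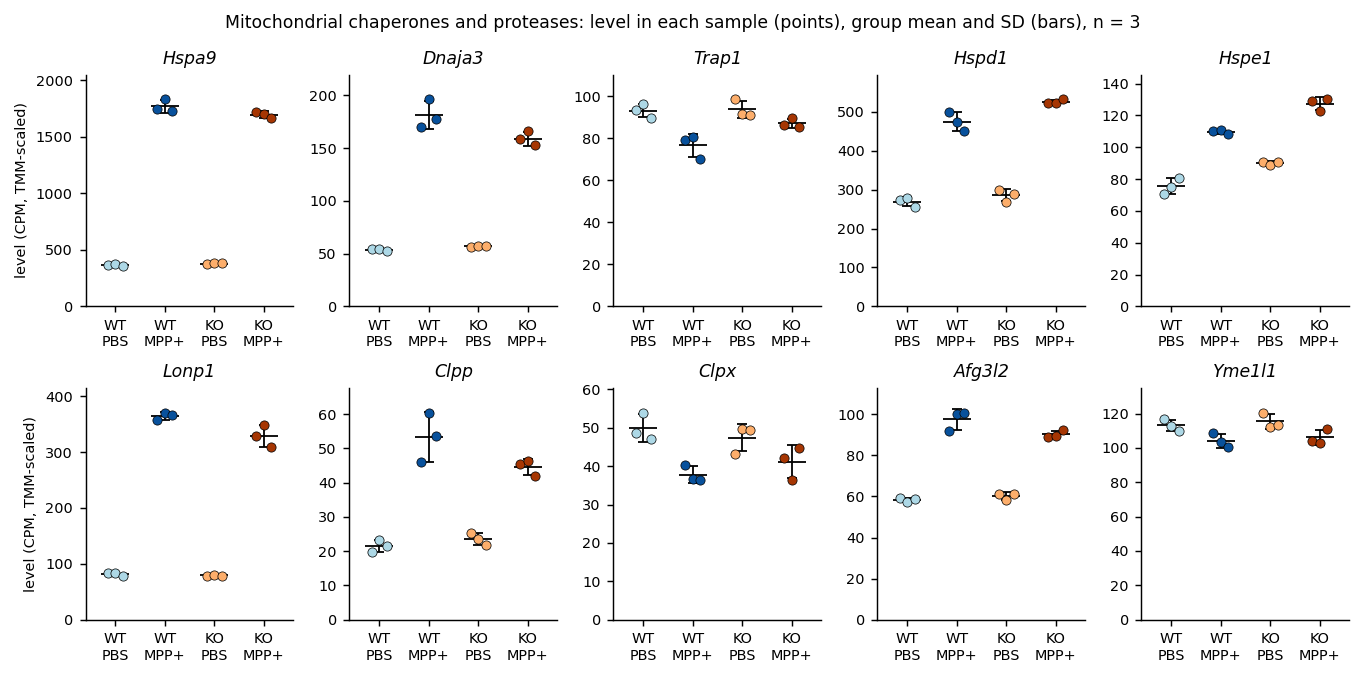
Level of each of the 10 genes in each sample (points), in CPM with TMM-scaled library sizes on a linear axis from 0, with the group mean and SD (bars, n = 3). Hspa9 and Lonp1 stood more than 4-fold above PBS in both genotypes, and Trap1, Clpx and Yme1l1 did not rise in either.

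Hspa9 (chr18:34937414-34954357, minus strand) had the highest FPKM of the 10 under MPP+. Its values in wild type were 370, 371 and 355 CPM under PBS and 1747, 1830 and 1728 CPM under MPP+. In Arrb2-KO they were 372, 381 and 384 CPM under PBS and 1721, 1704 and 1662 CPM under MPP+. The groups were far apart in both genotypes and tight within themselves. The log2 fold change was 2.28 ± 0.044 (SE, n = 3 per group; edgeR adjusted p = 2.54e-10) in wild type and 2.16 ± 0.044 (adjusted p = 2.14e-10) in the knockout. The deposited FPKM of the 10 genes followed counts divided by all annotated exon bases of a gene, not by transcript length. Genes with long annotated exons therefore read lower by FPKM. By this measure Hspa9 moved from rank 447 to rank 53 of the tested genes in wild type. Its share of the summed FPKM of the 10 genes rose from 23.7% ± 0.33 to 45.5% ± 0.32 (SD, n = 3).

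Dnaja3 (chr16:4639989-4707695, plus strand), also called Tid1, is a J protein that delivers clients to mortalin. It read 54.0, 54.8 and 52.4 CPM in wild-type PBS and 170, 196 and 178 CPM in wild-type MPP+. In Arrb2-KO it read 56.5, 56.9 and 57.3 CPM under PBS and 158, 166 and 153 CPM under MPP+. Every MPP+ sample lay far above every PBS sample, and the 3 knockout MPP+ samples lay below the 3 wild-type MPP+ samples. The log2 fold change was 1.76 ± 0.060 (SE; edgeR adjusted p = 2.31e-09) in wild type and 1.48 ± 0.060 (adjusted p = 8.88e-09) in the knockout. Its exons share 153 annotated bases with Coro7 on the opposite strand and 160 with Vasn on the same strand, and the rule for counting such bases is not stated.

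Trap1 (chr16:4039971-4077827, minus strand), the mitochondrial Hsp90, went the other way. It read 93.5, 96.3 and 90.0 CPM in wild-type PBS and 79.5, 80.5 and 70.4 CPM in wild-type MPP+, a fall without overlap of -0.28 ± 0.062 on the log2 scale (SE; edgeR adjusted p = 0.00242). In Arrb2-KO it read 98.6, 91.5 and 91.3 CPM under PBS and 86.4, 89.5 and 85.5 CPM under MPP+. Those groups did not overlap either by CPM, though they did by FPKM. The log2 difference of -0.11 ± 0.062 did not pass the test (adjusted p = 0.184, 95% interval -0.24 to 0.030).

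Hspd1 and Hspe1, the ring and the lid of the chaperonin, rose by less than Hspa9. Hspd1 read 273, 277 and 257 CPM in wild-type PBS and 499, 473 and 451 CPM in wild-type MPP+, and in Arrb2-KO 300, 269 and 290 CPM under PBS and 523, 524 and 532 CPM under MPP+. Hspe1 read 70.9, 74.9 and 80.9 CPM in wild-type PBS and 111, 111 and 108 CPM in wild-type MPP+, and in Arrb2-KO 90.6, 88.6 and 91.0 CPM under PBS and 129, 123 and 130 CPM under MPP+. For both genes the MPP+ samples lay above the PBS samples of their genotype, and for Hspe1 each knockout group also lay above its wild-type counterpart. The log2 fold change of Hspd1 was 0.82 ± 0.057 (SE; edgeR adjusted p = 3.14e-07) in wild type and 0.88 ± 0.057 (adjusted p = 2.77e-07) in the knockout. That of Hspe1 was 0.54 ± 0.055 (adjusted p = 6.41e-06) and 0.50 ± 0.055 (adjusted p = 1.66e-05). By FPKM, Hspd1 was the highest of the 10 genes under PBS, at 91.6 ± 3.85 in wild type (SD, n = 3), ahead of Hspa9 at 76.3 ± 1.90. Under MPP+ the order was turned, with Hspa9 at 379 ± 12.1 and Hspd1 at 166 ± 12.7. Reads from the 112 shared exon bases cannot be assigned without strand, and a processed pseudogene, Hspd1-ps3, held up to 2.49% as many counts as Hspd1.

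Lonp1 (chr17:56614297-56626887, minus strand), the Lon protease that clears oxidised and misfolded matrix proteins, rose about as much as Hspa9. It read 82.7, 82.9 and 78.6 CPM in wild-type PBS and 357, 370 and 366 CPM in wild-type MPP+. In Arrb2-KO it read 79.0, 80.8 and 78.6 CPM under PBS and 329, 348 and 309 CPM under MPP+. By CPM the genotypes overlapped under PBS, and under MPP+ the knockout samples lay below the wild-type samples. The log2 fold change was 2.16 ± 0.053 (SE; edgeR adjusted p = 4.25e-10) in wild type and 2.05 ± 0.053 (adjusted p = 5.48e-10) in the knockout. By FPKM, Lonp1 was at 16.8 ± 0.52 under wild-type PBS, close to Clpp at 15.8 ± 1.27 (SD, n = 3), and at 77.1 ± 0.82 under MPP+, above Hspe1 at 68.9 ± 2.34.

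The parts of the ClpXP protease moved in opposite directions. Clpp (chr17:56990305-56996188, plus strand) read 19.9, 23.2 and 21.5 CPM in wild-type PBS and 45.9, 60.5 and 53.6 CPM in wild-type MPP+, and in Arrb2-KO 25.4, 23.6 and 21.9 CPM under PBS and 45.4, 46.2 and 41.9 CPM under MPP+. Clpx (chr9:65294260-65330658, plus strand) read 48.6, 53.9 and 47.1 CPM in wild-type PBS and 40.3, 36.7 and 36.3 CPM in wild-type MPP+, and in Arrb2-KO 43.3, 49.7 and 49.3 CPM under PBS and 42.2, 36.5 and 44.9 CPM under MPP+. Clpp groups were separate in both genotypes, while Clpx groups were separate in wild type and overlapped in the knockout. Clpp rose by 1.31 ± 0.11 on the log2 scale in wild type (SE; edgeR adjusted p = 1.00e-06) and by 0.91 ± 0.10 in the knockout (adjusted p = 2.32e-05). Clpx changed by -0.40 ± 0.092 in wild type (adjusted p = 0.00304). Its value in the knockout was -0.20 ± 0.092, which was not called (adjusted p = 0.0892) except without replicate 3 of knockout MPP+ (-0.27, adjusted p = 0.0491).

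The inner-membrane proteases also parted. Afg3l2 (chr18:67404764-67449172, minus strand), a subunit of the m-AAA protease, read 59.3, 57.3 and 58.7 CPM in wild-type PBS and 91.8, 100.1 and 101 CPM in wild-type MPP+. In Arrb2-KO it read 61.0, 58.1 and 61.5 CPM under PBS and 89.2, 89.7 and 92.3 CPM under MPP+. The MPP+ samples lay above all PBS samples, with a log2 fold change of 0.74 ± 0.052 in wild type (SE; edgeR adjusted p = 3.68e-07) and 0.59 ± 0.052 in the knockout (adjusted p = 3.30e-06). Yme1l1 (chr2:23156369-23199260, plus strand), the i-AAA protease, read 117, 113 and 110 CPM in wild-type PBS and 108, 103 and 101 CPM in wild-type MPP+, and in Arrb2-KO 121, 112 and 113 CPM under PBS and 104, 103 and 111 CPM under MPP+. Its MPP+ samples lay just below the PBS samples in each genotype without overlap by CPM, but overlapped them by FPKM. The log2 difference of Yme1l1 was -0.12 ± 0.054 in both genotypes (edgeR adjusted p = 0.0803 and 0.0869). In wild type it was called lower with DESeq2, with size factors in place of TMM, with a minimum count of 50 and without replicate 1 of MPP+, where the adjusted p fell as low as 0.0324.

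Ordered by FPKM, wild-type PBS ran Hspd1, Hspa9, Hspe1, Trap1, Lonp1, Clpp, Clpx, Yme1l1, Dnaja3 and Afg3l2, and the samples overlapped between Lonp1 and Clpp and among Clpx, Yme1l1 and Dnaja3. Wild-type MPP+ ran Hspa9, Hspd1, Lonp1, Hspe1, Dnaja3, Clpp, Trap1, Yme1l1, Clpx and Afg3l2, with Dnaja3 (42.9 ± 2.41; SD, n = 3) and Clpp (40.2 ± 4.58) overlapping. Afg3l2, with 9874 annotated exon bases, stayed lowest by FPKM, at 5.32 ± 0.082 and 9.13 ± 0.23. By CPM, which are not scaled for length, the lowest mean was that of Clpp under PBS (21.5) and of Clpx under MPP+ (37.8).

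Over the 10 genes, the MPP+ and PBS groups were free of overlap by CPM for 10 genes in wild type and 9 in the knockout, against 62.9% and 59.0% of all tested genes. By FPKM, Yme1l1 overlapped in both genotypes and Trap1 in the knockout. The 10 genes together held 0.118% ± 0.0029 of all counts in wild-type PBS and 0.335% ± 0.011 in wild-type MPP+ (SD, n = 3). In Arrb2-KO the share was 0.119% ± 0.0013 and 0.324% ± 0.0021. No alternative processing ended the call of any of the 7 risers in either genotype, and no called value of the 10 genes changed direction in any comparison.

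**Figure D2:**
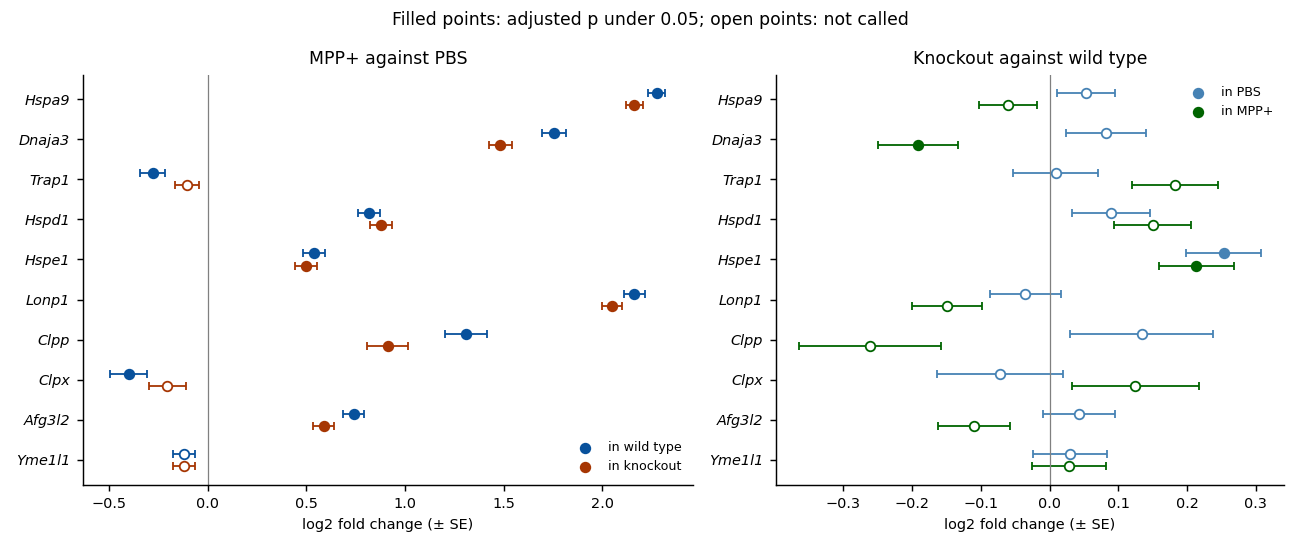
Log2 fold change and SE (bars) of each of the 10 genes for MPP+ against PBS in each genotype (left) and for Arrb2-KO against wild type in each treatment (right), on axes of different width. Filled points passed an adjusted p under 0.05. The 7 risers span 0.50 to 2.28 on the left, and on the right all values lie between -0.26 and 0.25.

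Genes whose products work together were then set against each other as ratios, in 6 pairs. For each pair the log2 ratio of counts was compared between MPP+ and PBS, averaged over the genotypes, by a two-sided exact permutation test that exchanged treatment within genotype. All 6 gave an exact p of 0.005, the smallest that the 400 arrangements allow, and 0.005 after adjustment over the 6 pairs. Members and lists were chosen with earlier results of these data known, and the ratios restate the changes of single genes. The share of arbitrary gene pairs that reach this p was not computed. The 6 results can therefore not be called particular to partner genes. The ratio of Clpp to Clpx by FPKM was 1.23 ± 0.068 in wild-type PBS and 4.06 ± 0.74 in wild-type MPP+, and 1.43 ± 0.21 and 3.12 ± 0.48 in the knockout (SD, n = 3), a rise by counts of 3.26-fold and 2.18-fold. The ratio of Hspa9 to Grpel1, its constitutive exchange factor, went from 6.54 ± 0.35 to 21.8 ± 1.68 in wild type and from 6.01 ± 0.31 to 20.5 ± 0.37 in the knockout. In every one of these groups the MPP+ samples lay above the PBS samples. The other exchange factor, Grpel2, was not among the 6 pairs. It rose by 1.75 in wild type and 1.30 in the knockout on the log2 scale, against 2.28 and 2.16 for Hspa9.

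Hspa9 also gained on its J protein, with an FPKM ratio of Hspa9 to Dnaja3 of 6.17 ± 0.042 in wild-type PBS and 8.87 ± 0.42 in wild-type MPP+. In the knockout this ratio went from 6.05 ± 0.056 to 9.69 ± 0.32 (SD, n = 3). The chaperonin ratio of Hspd1 to Hspe1 moved least, from 1.99 ± 0.20 to 2.41 ± 0.10 in wild type and from 1.77 ± 0.074 to 2.31 ± 0.067 in the knockout. Afg3l2 gained on Spg7 (paraplegin), with which it forms the mixed m-AAA protease, from 0.392 ± 0.0089 to 1.11 ± 0.10 in wild type and from 0.384 ± 0.019 to 0.943 ± 0.040 in the knockout. It also gained on Yme1l1, by 1.81-fold in wild type and 1.63-fold in the knockout. Leaving out any 1 sample left each ratio above its PBS value, with an adjusted p of at most 0.01. Whether the ratios' changes differ between genotypes was not tested.

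**Figure D3:**
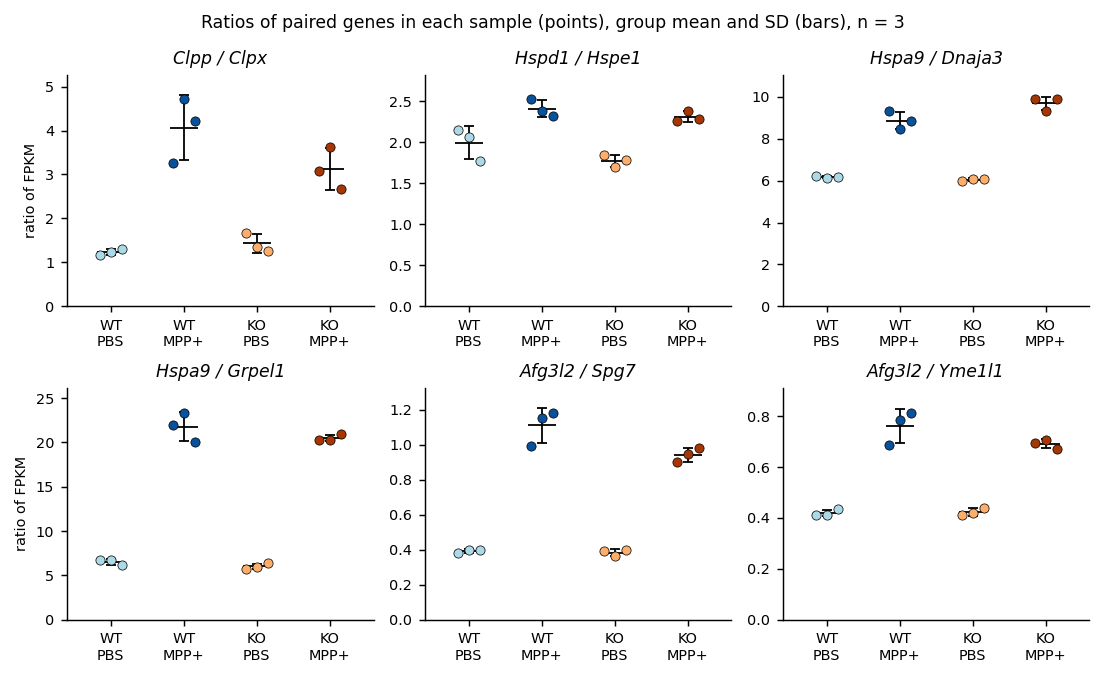
Ratio of FPKM for 6 pairs of partner genes in each sample (points), with the group mean and SD (bars, n = 3), on linear axes from 0. All MPP+ samples lie above the PBS samples of their genotype, and the ratio of Clpp to Clpx reached 4.71 in 1 wild-type MPP+ sample against at most 1.30 in wild-type PBS.

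The knockout was compared with wild type in each treatment. Under PBS, 1 of the 10 genes, Hspe1, was called, higher in the knockout by 0.25 ± 0.055 on the log2 scale (SE; edgeR quasi-likelihood adjusted p = 0.0135), while 11.0% of tested genes were called, 5.34% higher and 5.66% lower. Its call was lost without replicate 1 or 2 of wild-type PBS or replicate 1 or 3 of knockout PBS, with an adjusted p of up to 0.0704. The 95% intervals of the other 9 genes all held 0, and the widest, for Clpp, ran from -0.094 to 0.36. By CPM, Hspa9, Hspe1 and Dnaja3 had higher values in every knockout PBS sample than in every wild-type PBS sample. These are 3 of 10 genes, where 33.8% of tested genes had groups without overlap by CPM. By FPKM the groups of Hspa9 and Dnaja3 overlapped and those of Hspe1 did not, and Lonp1 was just lower in the knockout without overlap.

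Under MPP+, 2 of the 10 were called, 1 in each direction, where 16.9% of tested genes were called, 7.87% higher and 9.00% lower. Hspe1 was again higher, by 0.21 ± 0.055 (SE; edgeR adjusted p = 0.0223), a call lost without replicate 2 or 3 of wild-type MPP+ or replicate 1 or 3 of knockout MPP+ (adjusted p up to 0.0807). Dnaja3 was lower, at -0.19 ± 0.058 (adjusted p = 0.0455), a call lost under 14 of 22 alternatives, up to an adjusted p of 0.173. By CPM the groups did not overlap for 6 of 10 genes, against 33.9% of tested genes: Hspd1, Hspe1 and Trap1 were higher and Hspa9, Lonp1 and Dnaja3 lower in the knockout. By FPKM the groups of Hspa9 overlapped, and those of the others named did not. Clpp and Afg3l2, which overlapped by CPM, were lower in the knockout without overlap by FPKM. Trap1, at 0.18 ± 0.062 (adjusted p = 0.0667), was called higher under 4 alternatives, and Lonp1, at -0.15 ± 0.051 (adjusted p = 0.0673), was called lower under 5.

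These genotype differences sit beside differences in marker genes of other cells. All 5 fibroblast and meningeal markers were higher in the knockout under MPP+, where their summed level was 1139 to 1687 CPM against 146 to 499 CPM in wild type, and 1 of 5 was higher under PBS, with sums of 1286 to 1613 CPM against 309 to 1053 CPM. Of the 10 microglia and macrophage markers, 2 were lower in the knockout under PBS (sums of 207 to 262 CPM against 373 to 549 CPM) and 4 under MPP+ (137 to 207 CPM against 221 to 296 CPM). No marker in these 2 lists was at 0. Of the 8 astrocyte markers, 4 were lower in the knockout under PBS, with sums of 3016 to 3915 CPM against 4667 to 5492 CPM, and 2 were lower and 1 higher under MPP+, with sums of 1399 to 1669 CPM against 1657 to 2254 CPM. For the oligodendrocyte lineage, 8 markers were tested, and under PBS the knockout had 2 above wild type and 1 below it (sums of 408 to 421 CPM against 293 to 321 CPM) and under MPP+ 3 above it (117 to 147 CPM against 75.8 to 87.7 CPM). For neurons, 6 were tested and 2 were above wild type in each treatment, with sums that overlapped under PBS (190 to 281 CPM against 169 to 311 CPM) and under MPP+ (125 to 163 CPM against 113 to 129 CPM). For endothelial cells, 4 were tested, with 1 above and 1 below wild type under PBS and 1 above it under MPP+. At 0 in all 3 samples of a group were Mog and Slc17a6 in every group but wild-type PBS, Th and Cldn5 in knockout PBS, and Gad2 in knockout MPP+. Their part in the Hspe1 and Dnaja3 results was not tested.

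The interaction asks whether the MPP+ response itself differed between genotypes. None of the 10 genes was called by edgeR's quasi-likelihood test, where 1.35% of tested genes were (0.601% higher and 0.748% lower), and 2 had an unadjusted p under 0.05. These were Dnaja3, whose rise was smaller in the knockout by -0.27 ± 0.083 (SE; adjusted p = 0.124, higher than PBS in 3 of 3 samples of each genotype), and Clpp, at -0.40 ± 0.15 (adjusted p = 0.193). DESeq2 called Dnaja3 (adjusted p = 0.0461), but over all genes it called 701 higher and 706 lower, against 127 and 158 with edgeR. Without replicate 1 of wild-type MPP+, the sample that stood apart, edgeR called both, Dnaja3 at -0.31 (adjusted p = 0.0393) and Clpp at -0.49 (adjusted p = 0.0460). Over all genes, the interaction without that sample held 759 higher and 794 lower. Without it Clpp was also lower in knockout than in wild-type MPP+ (-0.36, adjusted p = 0.0218) and Hspd1 was higher (0.19, adjusted p = 0.0403). Over all genes, 2351 were then called higher and 2395 lower there, against 1663 and 1902 in the main fit. For Hspa9 the 95% interval of the interaction was -0.24 to 0.017 and for Lonp1 -0.27 to 0.044, both small beside rises of over 2 log2 units.

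A list of 33 other genes of mitochondrial protein quality control gave the setting of these changes, all of them tested. In wild type 16 rose and 7 fell with MPP+ (median 0.20), and in the knockout 18 rose and 5 fell (median 0.32). Over all tested genes 26.8% rose and 28.4% fell in wild type, and 23.1% and 24.7% in the knockout. Of the J proteins and cochaperones of Hsp70, 6 of 10 rose and 2 fell in wild type and 7 rose in the knockout. Of 3 other AAA proteins, 2 rose and 1 fell in each genotype. Of partners and scaffolds of the AAA proteases, 2 of 6 rose and 1 fell in each genotype, of the other proteases 3 of 5 rose, and of enzymes that trim presequences and peptides 3 of 9 rose and 3 fell in wild type, against 4 and 3 in the knockout, shares that for the last of these and for the partners and scaffolds were near those over all tested genes.

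The largest risers of this list in wild type were Grpel2, Hscb and Metap1d. Grpel2, the exchange factor of mortalin that is tied to stress, read 27.2, 25.0 and 25.0 CPM in wild-type PBS and 75.3, 94.1 and 90.6 CPM under MPP+, a log2 fold change of 1.75 ± 0.099 (SE; edgeR adjusted p = 7.11e-08). Its sister Grpel1 rose by 0.54 ± 0.059 (adjusted p = 1.14e-05). Hscb, the J protein of iron-sulfur cluster assembly, rose by 1.39 ± 0.13, and Metap1d, a mitochondrial methionine aminopeptidase, by 1.03 ± 0.13. All 3 rose in the knockout too, by 1.30, 1.13 and 1.14. The largest falls were those of Immp1l, an inner-membrane peptidase subunit (-0.97 ± 0.17), of Spg7 (-0.76 ± 0.055) and of Mipep, the intermediate peptidase of the matrix (-0.62 ± 0.075), and each fell in the knockout as well.

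Between genotypes, the calls among the 33 were no more frequent than over all tested genes, with 3 under PBS (11.0% of all tested genes) and 4 under MPP+ (16.9%). Lower in the knockout under PBS were Metap1d by -0.68 ± 0.13 (SE; edgeR adjusted p = 0.00754), Dnajc28 by -0.29 ± 0.083 (adjusted p = 0.0453) and Nln, the neurolysin peptidase, by -0.19 ± 0.054 (adjusted p = 0.0442). Under MPP+, Metap1d (-0.58 ± 0.13, adjusted p = 0.0119) and Grpel2 (-0.45 ± 0.096, adjusted p = 0.00966) were lower, and Dnlz, a helper of mortalin (0.29 ± 0.075, adjusted p = 0.0253), and Phb, a prohibitin that scaffolds the m-AAA protease (0.22 ± 0.064, adjusted p = 0.0392), were higher. None of the 33 was called in the interaction by edgeR, and 5 had an unadjusted p under 0.05. DESeq2 called 3, where over all genes it called 701 higher and 706 lower. The call of Dnajc28 was lost under 12 of 22 alternatives, those of Nln and Phb under 9 each, that of Dnlz under 5 and that of Metap1d under MPP+ under 2.

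**Figure D4:**
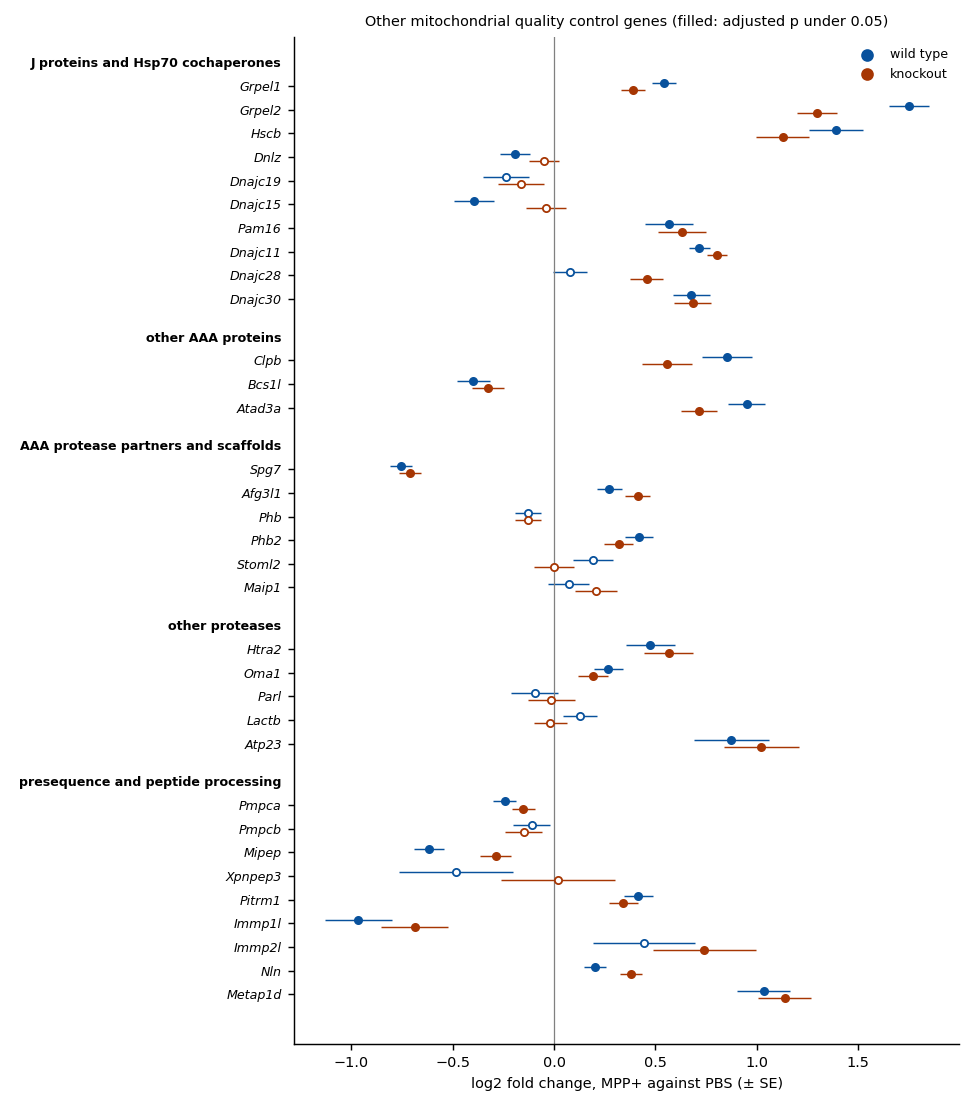
Log2 fold change with MPP+ and SE (bars) for 33 other mitochondrial quality control genes in wild type (blue) and Arrb2-KO (brown), by role. Filled points passed an adjusted p under 0.05, and Grpel2 has the largest value at 1.75 in wild type.

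Among 9 transcription factors and signals linked to these stress responses, 5 rose in both genotypes, as 19.9% of all tested genes did. Ddit3 (CHOP), which is induced by the integrated stress response, read 24.2, 21.4 and 22.9 CPM in wild-type PBS and 463, 554 and 478 CPM under MPP+, with a log2 fold change of 4.45 ± 0.11 (SE; edgeR adjusted p = 4.25e-10). Atf4 rose by 1.75 ± 0.16 and 1.69 ± 0.16 in wild type and knockout, Atf5 by 1.72 ± 0.084 and 1.94 ± 0.085, Cebpb by 1.64 ± 0.27 and 1.31 ± 0.26, and Hsf1, the heat shock factor, by 0.71 ± 0.13 and 0.55 ± 0.13. Hsf2 (-0.032 and -0.033), Gabpa (-0.031 and -0.048) and Nrf1, nuclear respiratory factor (0.40 and -0.038), were not called in either genotype. Ubl5, a partner in the mitochondrial unfolded protein response of Caenorhabditis elegans, had -0.14 ± 0.14 in wild type, not called, and fell by 0.42 on the log2 scale in the knockout (adjusted p = 0.0307). None of the 9 was called between genotypes or in the interaction by edgeR or DESeq2, and at an unadjusted p under 0.05 by edgeR there was 1, Ubl5 under PBS.

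Of 19 relatives of the same protein families that work outside mitochondria, 3 rose and 13 fell in wild type, and 3 rose and 9 fell in the knockout, where 28.4% and 24.7% of all tested genes fell. Their medians were -0.26 and -0.18. Hspa8, the constitutive cytosolic Hsp70, read 1314, 1279 and 1668 CPM in wild-type PBS and 770, 778 and 684 CPM under MPP+, a change of -0.93 ± 0.093 on the log2 scale (SE; edgeR adjusted p = 5.47e-06). Hspa5 (BiP), the Hsp70 of the endoplasmic reticulum, rose by 0.45 ± 0.16 in wild type (adjusted p = 0.0331), a call lost under 10 of 23 alternatives, and by 0.46 ± 0.16 in the knockout (adjusted p = 0.0361; lost under 7). All 3 other Hsp90 genes fell in wild type, Hsp90aa1 by 0.78, Hsp90b1 by 0.63 and Hsp90ab1 by 0.41 on the log2 scale, as Trap1 did. Of the 8 subunits of the cytosolic chaperonin, the relative of Hspd1, none rose, and 5 fell in wild type (Cct3 by 0.57 and Tcp1 by 0.35 the furthest) and 2 in the knockout.

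Of the type A J proteins, Dnaja1 fell by 0.78 on the log2 scale in wild type, and Dnaja2 and Dnaja4 rose by 0.17 ± 0.042 and 0.47 ± 0.088, against 1.76 for Dnaja3. Lonp2, the peroxisomal Lon protease, had -0.19 ± 0.069 in wild type (edgeR adjusted p = 0.0348; lost under 8 of 23 alternatives) and -0.0093 in the knockout, not called. Under MPP+ the knockout was higher than wild type for 6 of the 19 and lower for 1, against 7.87% and 9.00% of all tested genes. The 6 were Hsp90aa1 (0.43 ± 0.074), Hsp90ab1 (0.31 ± 0.059), Hsp90b1 (0.17 ± 0.049), Cct3, Dnaja1 and Hspa1b, and the 1 was Hspa1a. Of these calls, that of Hsp90b1 was lost under 9 of 22 alternatives, Dnaja1 under 5, Cct3 under 3 and Hspa1b under 2. Hspa1a and Hspa1b, the inducible cytosolic Hsp70 genes, are near-identical copies, so reads may be split between them and their values are uncertain. Hspa1a was lower in the knockout under PBS (-0.89 ± 0.16) and MPP+ (-0.75 ± 0.16), and Hspa1b was higher (0.64 ± 0.14 and 0.55 ± 0.14). Both fell with MPP+ in wild type, by 0.57 and 0.48 on the log2 scale.

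**Figure D5:**
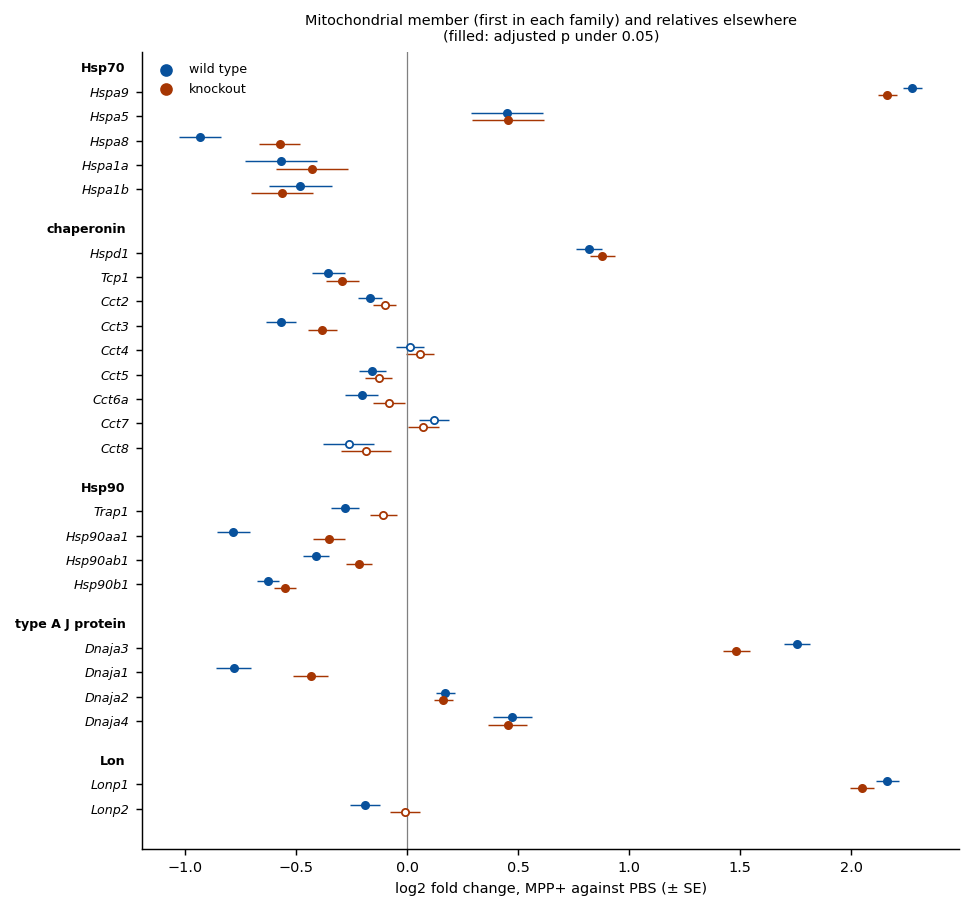
Log2 fold change with MPP+ and SE (bars) for each mitochondrial gene (first in its family) and its relatives outside mitochondria, in wild type (blue) and Arrb2-KO (brown). Filled points passed an adjusted p under 0.05. Hspa9, Hspd1, Dnaja3 and Lonp1 lie right of all their relatives, and Trap1 lies left of 0 with the Hsp90 genes.

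The genes whose log2 CPM was most like that of a member over the 12 samples were listed for 3 members as a description. For Hspa9 they were Ddit3, Cox6a2 and Ghitm, with Pearson correlations of 0.999 each. For Lonp1 they were Atf6, Ptp4a2 and Hspa9 (0.999 each), and for Clpp they were Bcl6 (0.996), Fbxl4 (0.993) and Jund (0.992). The samples share the MPP+ step, and 2630, 2675 and 2531 genes had a correlation over 0.9 with Hspa9, Lonp1 and Clpp.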

How the data were processed

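RNA of 12 samples was measured by mRNA sequencing (SMARTER kit, per the labels' protocols). The deposited table holds 2 kinds of value. Raw counts per gene are, per the file headers, not normalized. The FPKM values, per the file headers, were computed by the authors. In addition, the submitters' processing notes name the builds GRCm38 and mm10. Aligner, counting tool and strand setting: not given in the sources used here. As to statistics, the count model was that of edgeR 4.0.16 under R 4.3.3, with data.table version 1.17.8: filterByExpr (minimum count 10, minimum total 15), TMM scaling, then a quasi-likelihood fit of 4 group means (8 residual degrees of freedom). The 5 contrasts were adjusted by Benjamini-Hochberg over 21129 genes, two-sided, called under 0.05. SEs come from the F statistic. CPM use TMM library sizes; correlations used a prior count of 2. Depth was 64249029 to 69865569 counts per sample. Intervals cover the fitted error, not duplicate reads. The scripts were tested on simulated data.

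Named were all 10 members, all stress factors and relatives, and of the 33 quality control genes the 3 largest called rises and falls in wild type and those called between genotypes, with Grpel1 as a partner in the ratios; relatives and subunits not printed singly stand in the counts. Members and lists were chosen with earlier results of these data known. No same-numbered pair of replicates had deviations correlated over 0.1 across the tested genes, and no block was used in the main fit. This check over all genes cannot exclude that same-numbered samples share a culture, and some marker genes followed the numbers. Alternatives were DESeq2 1.42.0, limma 3.58.1 on log2(FPKM + 1) and log2(FPKM + 0.1), other scalings and filters, a replicate block, and each sample left out. Promoter sequences are RefSeq's, GRCm38.p6; ratios and figures were made with Python 3.11.15, pandas 2.3.3, numpy 2.4.6, scipy 1.17.1 and matplotlib 3.10.9.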

Additional observations from a re-analysis of the deposited data

How the results depend on the processing

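Over 1120 values of members under alternatives, 22 lost a call, 19 gained one and no called value reversed. For the other named genes 209 of 6944 lost a call, 61 gained one and no called value reversed. The cause was not tested in any case.

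The median log2 fold change of the members in wild type was 0.78, and 0.76 with size factors and with DESeq2, 0.82 with total counts, 0.75 with no filter and with a minimum count of 50, and 0.81 with limma on log2(FPKM + 0.1) (0.75 to 0.79 with single samples left out). In the knockout it was 0.72 with size factors and with DESeq2, 0.80 with total counts, 0.75 with no filter and with the 2 groups alone, 0.74 with a minimum count of 50, and 0.76 and 0.81 with limma on log2(FPKM + 1) and log2(FPKM + 0.1) (0.71 to 0.77 with single samples left out). For the interaction it was -0.077, and -0.043 with total counts, -0.026 with no filter, -0.044 with a minimum count of 50, and -0.038 and -0.039 with limma (-0.081 to -0.030 with samples left out). For knockout against wild type in PBS it was 0.048, and -0.0036 with total counts and -0.00076 and -0.0012 with limma.

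For knockout against wild type in MPP+, members called higher were 2 with DESeq2, a minimum count of 50 and the replicate block, and members called lower 2 with DESeq2, total counts and both limma fits and 0 with size factors, no filter and the 2 groups alone (each 0 to 2 with samples left out). Other quality control genes called higher there were 4 with DESeq2 and a minimum count of 50, 1 with total counts and limma on log2(FPKM + 1), and 0 with the 2 groups alone (0 to 2 with samples left out; lower, 1 to 4). In PBS they were 2 higher with DESeq2 (0 to 1 with samples left out; lower, 1 to 4), and members higher 0 to 1. With MPP+ in the knockout, 3 fell with limma on log2(FPKM + 1), and members lower were 0 to 1 with samples left out. In the interaction DESeq2 called 1 member lower, and 2 quality control genes higher and 1 lower (0 to 2, 0 to 1 and 0 to 1 with samples left out).

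Over all genes, the interaction held 127 higher and 158 lower, and 701 and 706 with DESeq2, 84 and 64 with no filter, 198 higher with a minimum count of 50 and 229 higher with limma on log2(FPKM + 1) (35 to 759 and 24 to 794 with samples left out; the highest without replicate 1 of wild-type MPP+). In MPP+ the 2 groups alone gave 988 higher and 980 lower (967 to 2351 and 1028 to 2395 with samples left out). In PBS, DESeq2 gave 1804 and limma on log2(FPKM + 1) 1973 lower (594 to 1383 with samples left out; higher, 515 to 1370). Of all calls in PBS 48.6% were higher, 35.5% with total counts and 35.7% and 36.3% with limma.

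Same-numbered samples had correlated deviations of -0.019 to 0.060 over 18 pairs, none over 0.1. Within a genotype all 6 pairs were positive (0.0078 to 0.052), and each PBS sample, but not each MPP+ sample, correlated best with its own number there. Single genes showed more. In knockout replicates 1, 2 and 3, the Y-linked Ddx3y read 16.7, 56.1 and 59.2 CPM under PBS and 18.9, 59.2 and 59.1 CPM under MPP+. In wild type Col3a1 read 212, 34.4 and 86.2 CPM, then 102, 18.1 and 31.4 CPM. Gfap in the knockout did not keep its order. Same-numbered samples may share a culture, and the main fit and the permutation test took them as unpaired. A replicate block within genotype, added after the data were seen, left 15 genes higher and 17 lower in the interaction. The replicate block across all samples gave 2 members higher in knockout MPP+ and changed no other count of members.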
